A study of Homo sapiens with 38 samples.

Results

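Costimulatory and checkpoint receptors are the surface proteins that raise or lower the response of a T cell once its antigen receptor has been engaged. This section describes 10 of their genes, CD28, CTLA4, ICOS, PDCD1, CD5, CD6, TIGIT, LAG3, HAVCR2 and BTLA, out of 20037 protein-coding gene records. For each gene, every line of the GATA3, BHLHE40 and H3K27ac peak lists that overlapped the RefSeq GRCh38 gene record, or 50 kb to either side of it, was taken. All 10 genes had a record, and the windows held 39 of 29009 GATA3 regions, 37 of 26205 BHLHE40 regions and 111 of 113570 H3K27ac regions.

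The series profiled Jurkat cells, an established human line of T-cell acute lymphoblastic leukaemia (T-ALL), by chromatin immunoprecipitation and sequencing. Its 38 samples fall into 19 groups of 2, and the 3 lists used here stand for the Ctrl_LV groups, that is cells with a control lentivirus, immunoprecipitated for GATA3, for BHLHE40 or for H3K27ac. The cells of all 3 groups were of wild-type background and had received PMA (50 ng/ml), which activates protein kinase C, and ionomycin (500 ng/ml), which lets calcium into the cell. The time was 5 hours by the sample characteristics and 2 hours by the treatment protocol. The other 16 groups, which include the guides sgCtrl_P258 (control) and sg70_P260 (RE4 base editing) and the BHLHE40_LV over-expressing cells, were not analysed here. No list of unstimulated cells was used, so what follows describes 1 state of 1 cell line. Each list holds 1 value per peak for both samples of its group, so no spread between samples and no test over samples can be given, and the depth of the samples is unknown.

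Stimulation in T cells comes from the antigen receptor together with CD28, the main costimulatory receptor, which binds CD80 and CD86 on antigen-presenting cells. CTLA4 binds the same ligands and inhibits, ICOS is an inducible costimulator, and PDCD1, TIGIT, LAG3, HAVCR2 and BTLA are inhibitory receptors known from activated or exhausted T cells. CD5 and CD6 are related scavenger-receptor proteins of T cells that set the strength of antigen-receptor signals. GATA3 is a zinc-finger factor of T-cell development and of helper T cells, BHLHE40 is a basic helix-loop-helix factor induced by activation, and H3K27ac is a histone mark of active promoters and enhancers.

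The cell type was checked with H3K27ac regions of a −log10 q of at least 5 within 1 kb of a record end. Over all protein-coding records, 46.5% had such a region. It was listed at 8 of 10 T-cell marker genes, among them CD3D, CD3E, CD247, CD2 and BCL11B, and at none of 6 B-cell marker genes. CD68 was the 1 of 6 myeloid marker genes that had one. CD3G and LCK were the T-cell markers without one.

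Promoter sequences were examined for those of the genes whose start could be matched. The RefSeq table of GRCh38.p14 gave the 250 bases before the start of 6 of the 10 genes, CD28, CTLA4, ICOS, PDCD1, TIGIT and BTLA. CD5, CD6, LAG3 and HAVCR2 were not matched. Each stretch was searched on both strands for AGATAA or AGATAG, for the same letters with T in first place (TGATAA or TGATAG), which GATA factors bind, and for CACGTG, the E-box letters of the BHLHE40 class. No 2 matches overlapped. The 4 genes below were chosen because the lists differ at their starts, and only the bases outside each gene's own record are printed, 5′ to 3′ along the gene, with motif matches in capitals.
CD28, chr2:203706389-203706481, plus strand: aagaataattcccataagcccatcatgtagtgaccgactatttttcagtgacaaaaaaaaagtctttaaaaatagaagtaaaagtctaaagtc
PDCD1, chr2:241858895-241859144, minus strand: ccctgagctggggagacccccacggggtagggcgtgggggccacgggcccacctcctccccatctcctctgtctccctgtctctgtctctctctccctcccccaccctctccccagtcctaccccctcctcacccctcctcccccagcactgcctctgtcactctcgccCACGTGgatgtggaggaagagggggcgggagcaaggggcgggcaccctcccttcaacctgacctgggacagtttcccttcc
BTLA, chr3:112499625-112499722, minus strand: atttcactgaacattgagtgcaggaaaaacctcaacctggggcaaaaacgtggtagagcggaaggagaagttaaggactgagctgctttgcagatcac
TIGIT, chr3:114293778-114294027, plus strand: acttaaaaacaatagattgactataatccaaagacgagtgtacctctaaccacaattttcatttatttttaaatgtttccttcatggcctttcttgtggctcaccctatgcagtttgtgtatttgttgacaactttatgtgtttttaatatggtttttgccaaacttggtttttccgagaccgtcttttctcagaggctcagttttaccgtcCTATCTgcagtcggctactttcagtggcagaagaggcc

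The whole 250-base stretch of CD28 lay inside a GATA3 region and a BHLHE40 region, and H3K27ac regions covered 155 of its bases. At PDCD1 a BHLHE40 region covered all 250 bases, while no GATA3 or H3K27ac region reached them. At BTLA a GATA3 region covered 150 bases and an H3K27ac region 135 bases of the stretch. At CTLA4, ICOS and TIGIT no region of any list reached the stretch. So GATA3 overlapped 2 of 6 stretches, BHLHE40 2 of 6 and H3K27ac 2 of 6. Over all 35116 promoters of the table the shares were 13.9%, 32.4% and 34.2%.

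The E-box letters were found in 1 of the 6 stretches, at PDCD1, with their first base 81 bases before the start, against 6.34% of all promoters. GATA letters were found in 1 of the 6, at TIGIT, as CTATCT with its first base 38 bases before the start, against 22.3% of all promoters. TIGIT had no factor region, and the CD28 and BTLA stretches held none of the searched letters although GATA3 regions lay over them. A match is a run of letters and was not shown to be bound.

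Most of the receptor genes had both factors in their surroundings, and CTLA4 and TIGIT stood at the empty end. A GATA3 region lay in the window of 9 of 10 genes, against 76.1% of all protein-coding records, and a BHLHE40 region in the window of 8, against 80.0%. An H3K27ac region lay in all 10 windows, against 92.6% of records. Those of a −log10 q of at least 5 lay in 7 windows, against 79.5%, and CTLA4, ICOS and TIGIT had none. These shares are near those of protein-coding genes as a whole. A GATA3 region that overlapped a BHLHE40 region by at least 1 bp was found in 8 windows, against 60.5% of records, and 7 windows held such a place with H3K27ac as well, against 55.2%.

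**Figure D1:**
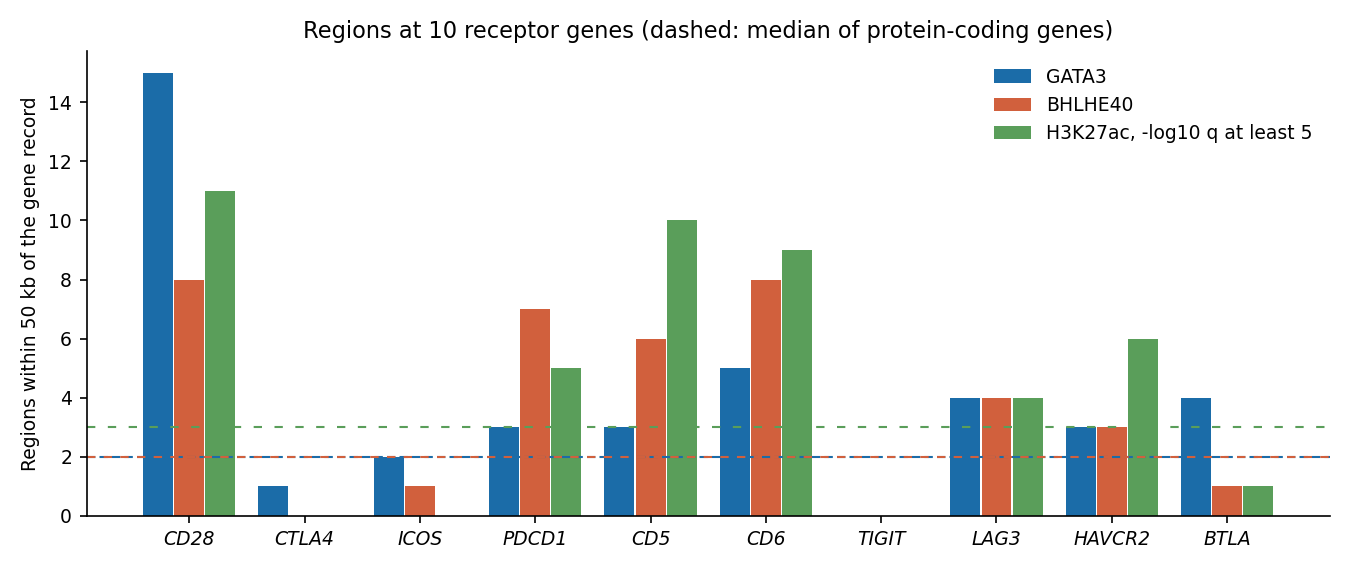
Number of GATA3 regions, BHLHE40 regions and H3K27ac regions of a −log10 q of at least 5 (y axis) within 50 kb of each receptor gene record (x axis). Dashed lines give the median over 20037 protein-coding records, which is 2 for both factors and 3 for H3K27ac. CD28 has 15 GATA3 regions, the other genes have 0 to 5, and TIGIT has no bar.

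Counts per window were spread widely. The median over the 10 genes was 3 GATA3 regions (range 0 to 15), against 2 over all protein-coding records. For BHLHE40 the median was 3.5 (range 0 to 8), also against 2. Windows of the receptor genes were 105936 to 148698 bp long, and the 9898 protein-coding records with windows in that range had medians of 2 GATA3 and 3 BHLHE40 regions. Regions of 1 window share their neighbourhood and are not replicates of each other.

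CD28 held 38.5% of all the GATA3 regions found at the 10 genes. Its record lies at chr2:203706482-203738912, and its window had 15 GATA3, 8 BHLHE40 and 21 H3K27ac regions, 11 of the last with a −log10 q of at least 5. As many GATA3 regions were found at 120 of 20037 protein-coding records (0.599%) and at 8 of the 9898 records with windows of like length. Of the 15 GATA3 summits, 4 lay before the record, 7 inside it and 4 beyond it. No other protein-coding record reached into the window, and 11 of the 15 had CD28 as the nearest record of any kind.

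The place with the highest GATA3 and H3K27ac signal values at CD28 lay just beyond the gene. For BHLHE40, places inside the gene were higher, at 40.7 and 30.0. At the place beyond the gene, a GATA3 region at chr2:203740608-203742200 had a signal value of 137.9, which is rank 81 of 29009. Its summit lay 2307 bp past the end of the record. A BHLHE40 region at chr2:203740619-203742112 had a signal value of 29.9 (rank 1356 of 26205), and the summits were 11 bp apart. The H3K27ac region over them, at chr2:203740208-203742046, had a signal value of 8.43 and a −log10 q of 254, the highest of any H3K27ac region at the 10 genes. CD28 is read in the direction of rising coordinates, so this place follows the 3′ end of the gene.

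Inside CD28 the factors met at 4 further places. With its summit 4932 bp past the start, a GATA3 region at chr2:203711012-203712163 had a signal value of 86.0 (rank 401), and its BHLHE40 partner at chr2:203711117-203712047 had 40.7 (rank 636), with summits 22 bp apart. H3K27ac there had a signal value of 2.53, below the list median of 3.31, and a −log10 q of 10.7, above the list median of 3.00. A second place, at chr2:203717831-203719164 for GATA3 and chr2:203717486-203718845 for BHLHE40, had signal values of 32.5 and 30.0 and summits 30 bp apart. The third, at chr2:203719460-203720604 for GATA3, had 22.8 for GATA3 and 10.96 for BHLHE40, with summits 72 bp apart.

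The fourth was the promoter shown above. Its GATA3 region, chr2:203706162-203706963, had a signal value of 9.73 (rank 17488 of 29009), and its BHLHE40 region, chr2:203706217-203706900, had 11.4 (rank 9638 of 26205). The GATA3 summit lay 116 bp and the BHLHE40 summit 76 bp before the start. The promoter therefore carried the 2 factors at signal values of 9.73 and 11.4, whereas the place beyond the gene carried 137.9 and 29.9. H3K27ac on the promoter came as regions with −log10 q of 21.2 and 9.73.

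All 8 BHLHE40 regions in the CD28 window overlapped a GATA3 region. In the other windows this held for 11 of 29 (37.9%), and in the whole BHLHE40 list for 53.0%. Of GATA3, 8 of its 15 CD28 regions overlapped BHLHE40, and 4 had neither BHLHE40 nor H3K27ac. The strongest of these GATA3 regions on their own, chr2:203697118-203697726, peaked 9085 bp before the record and had a signal value of 21.2. The comparison of CD28 with the other windows was chosen after its values were seen and was not tested.

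**Figure D2:**
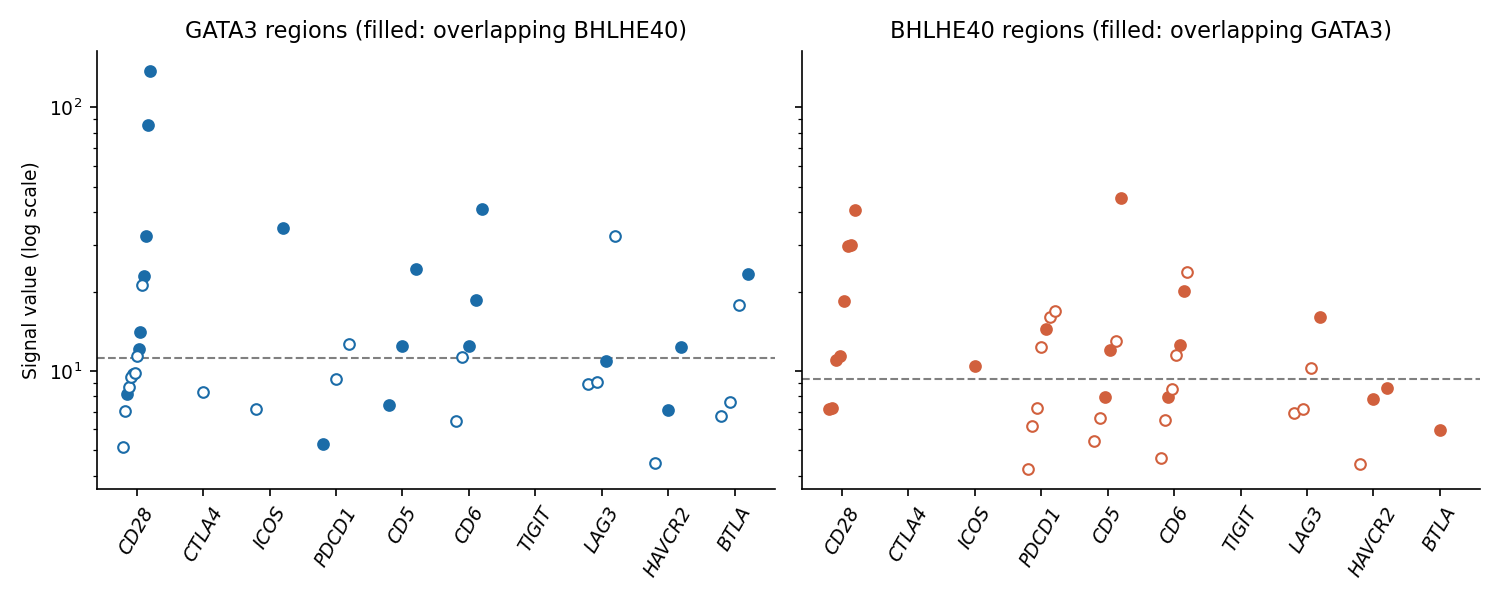
Authors' signal value per region on a log axis (y) for each receptor gene (x), with GATA3 on the left and BHLHE40 on the right. Filled points overlap a region of the other factor, open points do not, and the dashed line is the median of the whole list (11.2 for GATA3 and 9.35 for BHLHE40). All BHLHE40 points of CD28 are filled, and 2 GATA3 points of CD28 stand above all others, at 86.0 and 137.9.

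CTLA4 and ICOS lie beside CD28 on chromosome 2 and had fewer regions of each factor than CD28. CTLA4 had 1 GATA3 and 0 BHLHE40 regions, and ICOS had 2 and 1. The median over all protein-coding records was 2 for each factor. The gap from CD28 to CTLA4 is 128.9 kb and that from CTLA4 to ICOS 62.8 kb, so the windows of CTLA4 and ICOS overlap each other. They share no factor region. Across the 355.1 kb from the start of the CD28 window to the end of the ICOS window there were 20 GATA3 regions, 15 of them in the CD28 window, and 10 BHLHE40 regions, 8 of them in it.

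The CTLA4 window (record chr2:203867771-203873965) had 1 GATA3 region, at chr2:203858189-203858547. Its signal value was 8.34 (rank 20892 of 29009), it overlapped neither other list, and its summit lay 9407 bp before the start of the gene. No BHLHE40 region was listed in the window, and the nearest BHLHE40 summit was 56007 bp from the record. The 7 H3K27ac regions had −log10 q of 1.51 to 3.86, and none of their summits lay inside the gene.

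ICOS (record chr2:203936763-203961577) carried 1 shared place, inside the gene and 15020 bp past its start. The GATA3 region, chr2:203951351-203952017, had a signal value of 34.7 (rank 2820 of 29009) and a −log10 q of 438. The BHLHE40 region, chr2:203951431-203951995, had a signal value of 10.4 (rank 11152 of 26205), and the summits were 48 bp apart. An H3K27ac region overlapped this place, but no H3K27ac region in the ICOS window exceeded a −log10 q of 4.51. A second GATA3 region inside the gene, at chr2:203946661-203947006, had a signal value of 7.15 and stood alone.

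**Figure D3:**
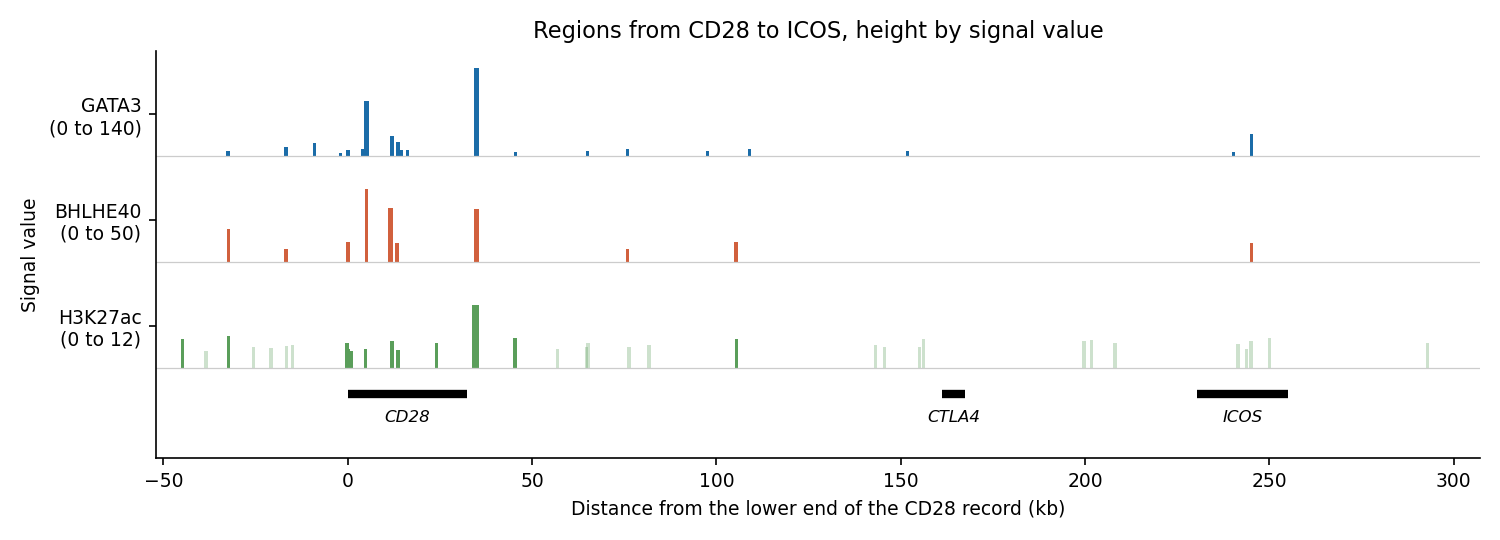
Regions of the 3 lists from the CD28 window to the ICOS window, placed by distance from the lower end of the CD28 record in kb (x axis), with the signal value as the height of each bar (a scale per list, given at the left) and gene records in black. Narrow regions are drawn at a minimum width, and pale H3K27ac bars have a −log10 q under 5. Tall GATA3 and BHLHE40 bars stand inside CD28 and just beyond it, the tallest H3K27ac bar stands beyond it at 8.43, CTLA4 has 1 short GATA3 bar, and ICOS has a single place with GATA3 at 34.7 and BHLHE40 at 10.4.

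CD5 and CD6 lie 73.6 kb apart on chromosome 11, and their windows share 1 GATA3 region and 1 BHLHE40 region. For these genes, LAG3 and HAVCR2 no start was matched, so places are given from the lower or higher coordinate end of the record. The CD6 window (record chr11:60971680-61020377) had 5 GATA3, 8 BHLHE40 and 14 H3K27ac regions, and all 8 BHLHE40 regions overlapped H3K27ac. A BHLHE40 region at chr11:60971398-60971896, peaked 32 bp outside the lower end of CD6, at a signal value of 8.53. No GATA3 region overlapped it, and the nearest one below the record, at chr11:60969314-60969704, had a signal value of 6.45.

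Inside CD6 the strongest BHLHE40 region, at chr11:60985863-60986650, had a signal value of 23.6 (rank 2209 of 26205), lay on H3K27ac with a −log10 q of 38.5 and had no GATA3. The shared place inside the gene, at chr11:60978526-60979287 for GATA3, had signal values of 18.6 for GATA3 and 20.2 for BHLHE40, with summits 159 bp apart. The highest GATA3 value of the window lay outside the gene. That region, chr11:61025807-61026504, had a signal value of 41.1 (rank 2099 of 29009), 5794 bp past the higher end of CD6, with BHLHE40 at 12.5. H3K27ac over it had a −log10 q of 42.7, and a region next to it 83.1.

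At CD5 (record chr11:61093963-61127852) no GATA3 summit lay inside the gene. Its window had 3 GATA3 and 6 BHLHE40 regions, and all 3 GATA3 regions overlapped BHLHE40. Of these, the region at chr11:61076430-61077050 had a GATA3 signal value of 24.4 (rank 4921 of 29009) and lay 17171 bp below the record, inside the noncoding records LOC105369325 and LOC124902677. Its BHLHE40 partner peaked 29 bp away, and no H3K27ac region overlapped either. The only BHLHE40 region in CD5 itself was weak, with a signal value of 6.63 at chr11:61102142-61102764, overlapping H3K27ac with a −log10 q of 24.7.

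The BHLHE40 region with the highest signal value in the CD5 window lay beside a neighbouring gene record. That region, chr11:61160900-61162106, had a signal value of 45.3 (rank 480 of 26205), and its summit lay 84 bp outside the record of VPS37C and 33658 bp from CD5. GATA3 at the same place had a signal value of 7.42, with its summit 2 bp away. CD5 had 10 H3K27ac regions of a −log10 q of at least 5 in its window, of which 5 had their summits inside the gene and 2 lay at VPS37C.

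PDCD1 (record chr2:241849884-241858894) had more BHLHE40 than GATA3, with 7 regions against 3. The BHLHE40 region over its start, chr2:241858818-241860488, had a signal value of 14.4 (rank 6342 of 26205), and its summit lay 1111 bp before the start. The E-box letters printed above were inside this region but 1030 bp from its summit. GATA3 at the same place, chr2:241859518-241860410, had a signal value of 5.26 (rank 28020 of 29009) with its summit 73 bp from that of BHLHE40. H3K27ac there, at chr2:241859317-241860525, had a −log10 q of 62.4, the highest of the window.

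By summit, none of the 7 BHLHE40 regions had PDCD1 as its nearest record of any kind. PDCD1 was the nearest protein-coding record of 3 of them. The region over the PDCD1 start overlapped the PDCD1 record, while its summit lay inside the noncoding record LOC124908032. The highest of the 7, at chr2:241881081-241882730, reached 16.9 inside LINC01237, 23090 bp before the PDCD1 start. Another, at chr2:241844161-241844784, reached 16.0 at 5486 bp below the record and overlapped neither other list. The PDCD1 record itself held no factor summit and 1 H3K27ac summit.

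LAG3 (record chr12:6772520-6778455) shares its window with 6 other protein-coding records, among them CD4, the coreceptor of helper T cells. It had 4 GATA3 and 4 BHLHE40 regions, and LAG3 was the nearest record of none of these 8. The highest GATA3 value, 32.6 (rank 3122 of 29009) at chr12:6786361-6787212, lay between LAG3 and CD4, with its summit 8338 bp past the higher end of LAG3. No BHLHE40 region overlapped it, and H3K27ac on it had a −log10 q under 5. The highest BHLHE40 value, 16.1 at chr12:6723662-6724910, lay inside COPS7A. The last BHLHE40 region inside the window limit, peaked 49978 bp from LAG3, inside P3H3, at 7.13.

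HAVCR2 (record chr5:157085832-157109044) had 3 GATA3 and 3 BHLHE40 regions, and all 3 lists met at the higher end of its record. GATA3 at chr5:157108853-157109368 had a signal value of 7.08 (rank 24512 of 29009), and BHLHE40 at chr5:157108919-157109396 had 8.58 (rank 14796 of 26205). Their summits lay 149 and 152 bp outside the record, 3 bp apart. H3K27ac over them, chr5:157108883-157110090, had a signal value of 9.59 (rank 2852 of 113570) and a −log10 q of 49.3. At this place the factors were below the median of their lists and the mark was among the 3 highest signal values found at the receptor genes. HAVCR2 was the nearest record of 1 of the 3 GATA3 regions and 2 of the 3 BHLHE40 regions. The highest GATA3 value of the window, 12.3 at chr5:157148818-157149232, peaked 39956 bp past the higher end, nearest to MED7. A BHLHE40 region overlapped it, with summits 17 bp apart.

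BTLA (record chr3:112463966-112499624) had more GATA3 than BHLHE40, the reverse of PDCD1. Its window had 4 GATA3 regions, 1 BHLHE40 region and 1 H3K27ac region of a −log10 q of at least 5. The highest GATA3 value was 23.3 (rank 5283 of 29009) at chr3:112473154-112474180 inside the gene, where BHLHE40 had 5.93 and no H3K27ac region was listed. Another GATA3 region, at chr3:112463927-112464705 over the far end of the gene, had a signal value of 17.8 and overlapped neither other list. Near the start the GATA3 region was weaker, at 7.62 with its summit 673 bp before the start, and the H3K27ac region overlapping it had a −log10 q of 6.65.

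TIGIT (record chr3:114294028-114310288) had no region of either factor. The nearest GATA3 summit on its chromosome lay 250357 bp from the record and the nearest BHLHE40 summit 189926 bp. No region of either factor was listed in 14.0% of protein-coding windows. The 5 H3K27ac regions in the TIGIT window had −log10 q of 1.51 to 3.20. A gene without listed regions is not shown to be unbound, since the depth behind the lists is unknown.

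**Figure D4:**
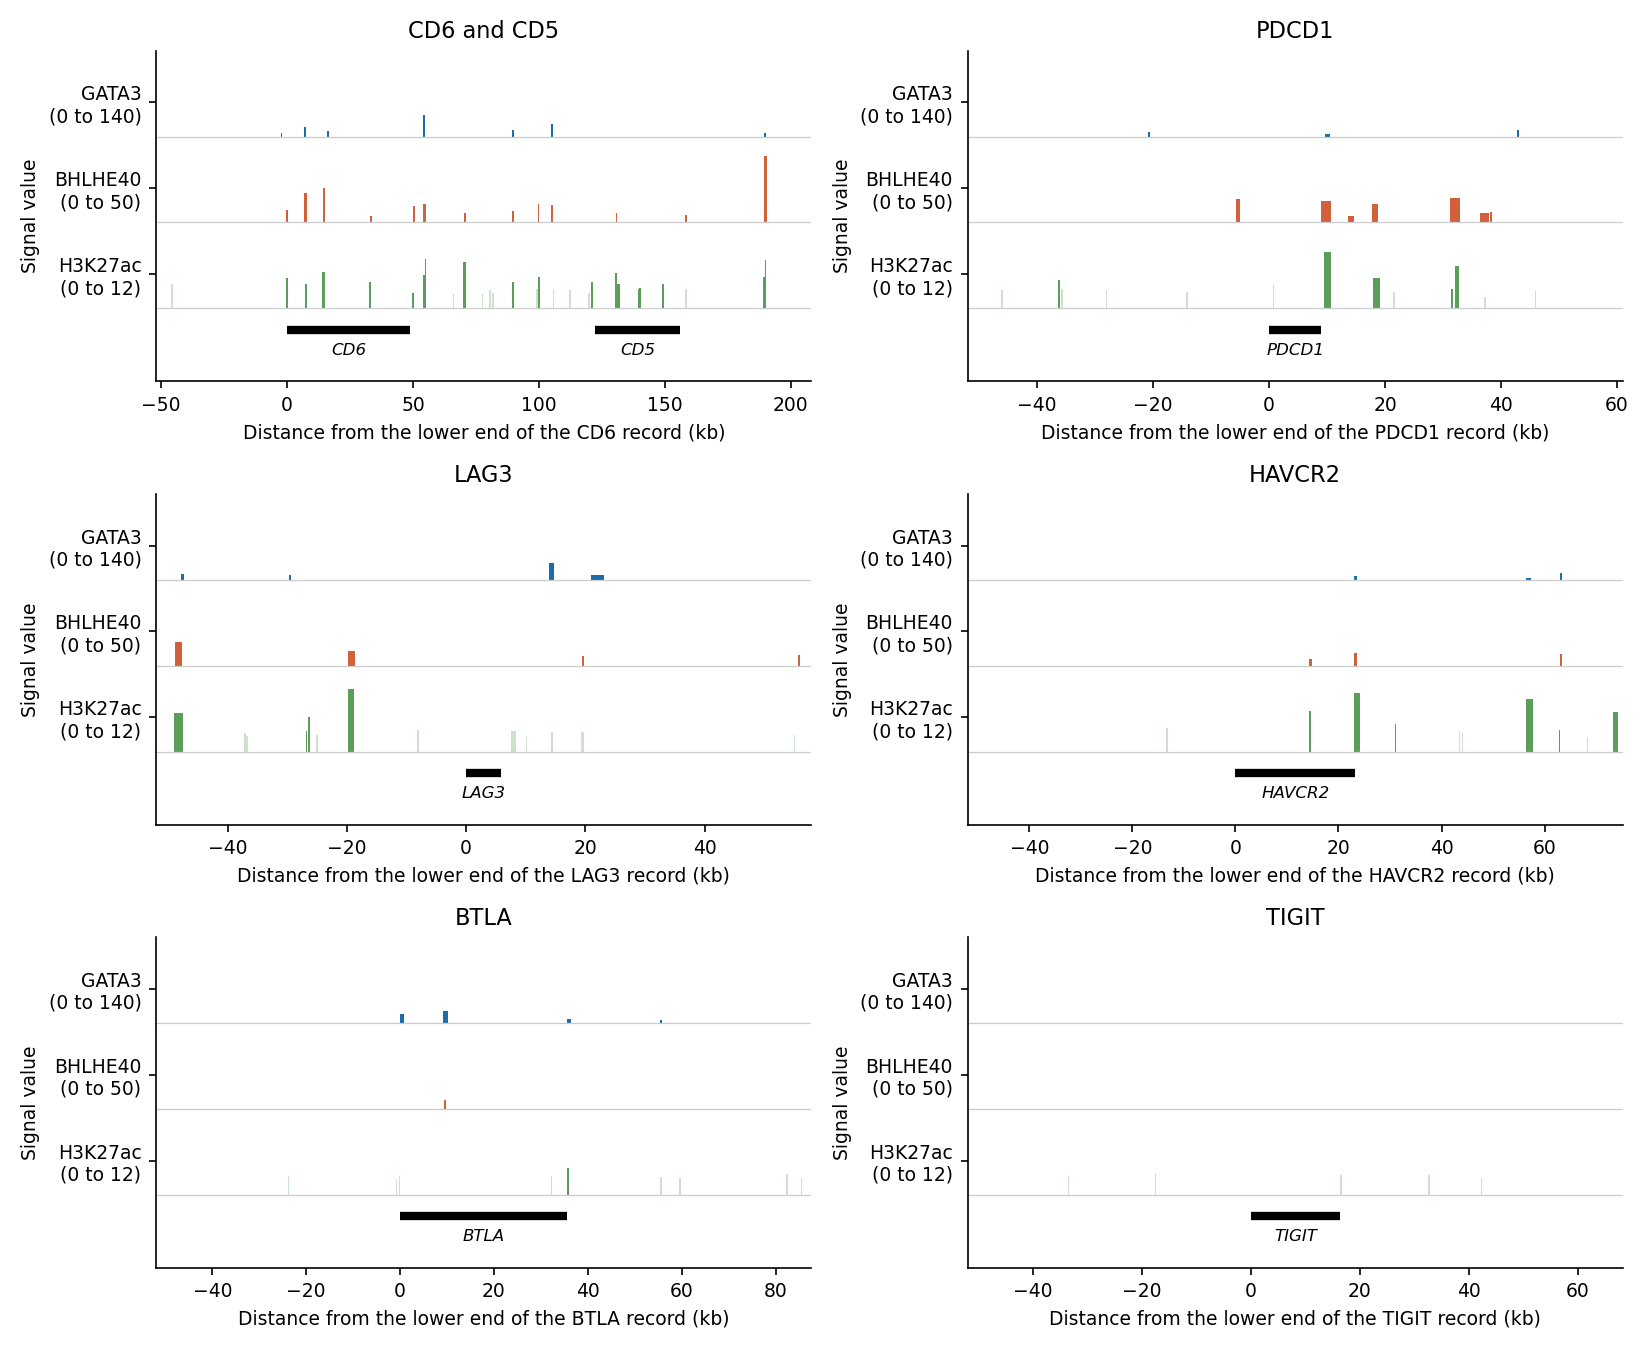
The same kind of map for CD6 with CD5, PDCD1, LAG3, HAVCR2, BTLA and TIGIT, with distance from the lower end of the first gene's record in kb (x axis) and the signal value as bar height, on the same scale per list in all panels. Pale H3K27ac bars have a −log10 q under 5, and only the named receptor genes are drawn. The tallest BHLHE40 bar, 45.3, stands beyond CD5 at VPS37C, HAVCR2 has bars of all 3 lists at its higher end, and TIGIT has only pale bars.

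Record ends, which include the promoters, carried a factor summit within 1 kb at a minority of the 10 genes. PDCD1 fell just outside this limit, with a GATA3 summit at 1038 bp and a BHLHE40 summit at 1111 bp. Other limits were not tried. A BHLHE40 summit lay within 1 kb of a record end at 3 of 10 genes (CD28, CD6 and HAVCR2), against 44.2% of records. A GATA3 summit did so at 3 of 10 (CD28, HAVCR2 and BTLA), against 20.8%. An H3K27ac summit of a −log10 q of at least 5 did so at 5 of 10 (CD28, PDCD1, CD6, HAVCR2 and BTLA), against 46.5%. Nothing particular to these genes is drawn from these counts.

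Over all windows together the factors overlapped each other about as often as in the whole lists. Of the 39 GATA3 regions 19 overlapped BHLHE40 (48.7%, 95% Wilson interval 33.9% to 63.8%), against 48.7% of the whole list. Of the 37 BHLHE40 regions 19 overlapped GATA3 (51.4%, interval 35.9% to 66.6%), against 53.0%. H3K27ac overlapped 22 GATA3 regions (56.4%, interval 41.0% to 70.7%), against 49.1%, and 31 BHLHE40 regions (83.8%, interval 68.9% to 92.3%), against 76.4%. These intervals cover counting only. In the 19 shared places the summits were a median of 39 bp apart (range 2 to 914 bp), and the widest pair was that at COPS7A. Over the 14123 GATA3 regions of the whole list that overlapped BHLHE40, the median was 35 bp.

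Signal values at the receptor genes were near those of the whole lists. The median was 10.9 for GATA3, against 11.2 in the list, and 10.4 for BHLHE40, against 9.35. The top 10% of each list by signal value held 4 of the 39 GATA3 regions and 5 of the 37 BHLHE40 regions. Among H3K27ac regions of the windows with a −log10 q of at least 5, 34 of 45 (75.6%) overlapped a factor, against 70.0% in the list. Below that value 9 of 66 (13.6%) did. The share of the whole list below that value was not computed, so nothing particular to these windows is drawn from the 13.6%.

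Other genes of the same pathways were counted with the same windows. Over all protein-coding records 76.1% had a GATA3 region, 80.0% a BHLHE40 region and 55.2% a place of all 3 lists, with a median of 2 regions for each factor. Among 22 other co-receptors, 21 had a GATA3 region and 19 a BHLHE40 region, with medians of 4 and 5, and 18 had a place of all 3 lists. The BHLHE40 count is near the share of all records. CD226, the activating counterpart of TIGIT, had 18 GATA3 regions with signal values of up to 134 and 14 BHLHE40 regions of up to 152. CD40LG, the ligand of CD40 on activated T cells, had 15 GATA3 regions of up to 88.6 and 21 BHLHE40 regions of up to 35.5. SLAMF6 had 13 GATA3 regions of up to 149.8 and 11 BHLHE40 regions of up to 168. CEACAM1 had none of either factor.

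Of 11 genes for ligands of the receptors, many of which are made by antigen-presenting cells, 7 had a GATA3 region and 8 a BHLHE40 region, with medians of 1 and 1. A place of all 3 lists was found at 5 of the 11. These counts are near the shares of 76.1%, 80.0% and 55.2% over all records. LGALS9, a ligand of HAVCR2, had 2 GATA3 regions of up to 32.2 and 2 BHLHE40 regions of up to 26.05. CD80, a ligand of CD28 and CTLA4, had 3 GATA3 regions of up to 25.5 and 2 BHLHE40 regions of up to 20.1. ICOSLG and PDCD1LG2 had no factor region. The ligand and co-receptor lists have 1 gene in common.

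Of 16 genes for intracellular partners of the receptors, 15 had a GATA3 region and all 16 a BHLHE40 region, with medians of 6.5 and 7, against 76.1% and 80.0% of all records. A place of all 3 lists was found at 15 of the 16, against 55.2%. INPP5D, a lipid phosphatase, had 13 GATA3 regions of up to 80.5 and 11 BHLHE40 regions of up to 28.3. LCP2, an adaptor, had 11 GATA3 regions of up to 74.2 and 10 BHLHE40 regions of up to 105.5. Window lengths follow gene lengths and were not matched here, and the lists were not tested against each other or against all records.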

How the data were processed

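The measurements are 3 lists of ChIP-seq peaks deposited by the authors for stimulated Jurkat cells with a control lentivirus, 1 list for both samples of each group. The submitters' processing notes for these samples name hg38, bcl2fastq 2.20 and MACS2, and the aligner and the use of input are not given in the sources used here. The deposited factor lists carry an IDR (irreproducible discovery rate) value of 0.05 in their names, and the name of the H3K27ac list says pooled. The authors' signal value per peak, their score and their −log10 q were used to describe, rank and filter peaks within 1 list. The signal values of both factors were summed per gene only to choose which genes of the further lists are named, and no such sum is reported. Samples were grouped by their titles, and nothing in the labels says whether the 2 samples of a group came from separate cultures.

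Regions were joined to windows and to each other by an overlap of at least 1 bp, with Python 3.11.15, numpy 2.4.6, pandas 2.3.3 and matplotlib 3.10.9, and intervals used scipy 1.17.1. The overlap functions were tested on simulated regions. Gene records (59679, of which 20037 protein-coding) and promoters came from RefSeq GRCh38.p14, all coordinates are 1-based, and the gene table gives no strand or exons. The members, gene lists and markers were chosen with earlier results of these data known. All 10 genes are named, with up to 3 of the highest regions per list, shared places and regions near record ends. Of each further list at most 4 genes are named, those with the highest summed factor signal value or with no factor region. The values of 1 listed gene are not reported here. No test was used. Alternatives were other windows, a score of at least 830, a −log10 q of at least 5, other definitions of overlap and assignment to the nearest record.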

Additional observations from a re-analysis of the deposited data

How the results depend on the processing

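Across 12 results, 61 alternative settings were computed, 55 planned and 6 added after seeing the data (the nearest protein-coding record). In 48 of them counts stayed within 1.5 times the reported value and shares within their interval. This rule is wide: a change from 9 to 6 genes passed it, and the intervals reflect only the number of regions. The number of genes with a region stayed at 9 of 10 for GATA3 with windows of 25 kb and 100 kb, and was 6 when only regions nearest to the receptor gene itself counted. Genes with a GATA3 region overlapping BHLHE40 numbered 7 with 25 kb, 9 with 100 kb and 6 with an overlap of at least 50%. Genes with a place of all 3 lists numbered 5, 9 and 5 under these settings. The shares over all records were not recomputed for them. The numbers of regions moved most. Windows of 100 kb gave 64 GATA3 and 63 BHLHE40 regions, and windows of 25 kb gave 73 H3K27ac regions. Counting only regions whose nearest record was the receptor gene gave 21 GATA3, 16 BHLHE40 and 41 H3K27ac regions, and with the nearest protein-coding record 72 H3K27ac regions. A −log10 q of at least 5 left 45 H3K27ac regions, and 67.6% of BHLHE40 regions on them. With summits inside H3K27ac the shares were 38.5% for GATA3 and 62.2% for BHLHE40, and with at least 50% of the region covered they were 38.5% and 56.8%. The shares of the whole lists were not recomputed under these q and overlap limits. Wider windows take in more regions, and nearest-record, q and overlap limits fewer, by construction.

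No paired analysis was possible because the result comes from no test and no value per sample was at hand, and leaving out a replicate was not run for the same reason. Since no depth is given, a region that is not listed is not shown to be absent, and lists of different length were not set against each other by signal value. The gene table gives no strand or exons. Several windows hold other genes, so a region in a window is not assigned to the receptor gene.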

Other observations

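Between the windows of CD28 and CTLA4 lay 2 further GATA3 regions and 1 BHLHE40 region. The BHLHE40 region, chr2:203811466-203812142, peaked 105.1 kb past the CD28 start at a signal value of 11.4, and an H3K27ac region with a −log10 q of 6.98 overlapped it. No GATA3 region overlapped it. The GATA3 regions, chr2:203803903-203804345 and chr2:203815271-203815802, had signal values of 7.95 and 11.4 and lay to either side of it.

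By number, CD5, CD6 and CD28 carried the most BHLHE40 regions on H3K27ac. Of the 8 BHLHE40 regions at CD6, 3 overlapped GATA3, and of the 6 at CD5, 3 did, whereas at CD28 all 8 did. H3K27ac overlapped all 8 BHLHE40 regions at CD6, 5 of 6 at CD5 and 7 of 8 at CD28, against 76.4% of the whole BHLHE40 list. It also overlapped all 4 at LAG3, all 3 at HAVCR2 and the 1 at ICOS. At PDCD1 it overlapped 4 of 7, and at BTLA 0 of 1. These differences were noticed in the data and were not tested.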
